A study of Homo sapiens with 32 samples.

Results

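Levels of 37 genes of the interferon response were measured in 2 prostate cancer cell lines. The genes were taken from a list of symbols, and that list was chosen with earlier results of these data known. All 37 were found among the 29744 genes of the deposited table, and 33 of them had enough reads to be tested in at least 1 line (32 in C4-2B and 31 in LNCaP). LNCaP is an androgen-responsive line grown from a lymph node metastasis of prostate cancer, and C4-2B is a more aggressive line derived from LNCaP. Both were transfected with a control siRNA (siCTRL) or with siRNA against MOCOS (siMOCOS), and each was grown without or with thapsigargin (TG). MOCOS is the molybdenum cofactor sulfurase, which activates xanthine dehydrogenase in purine breakdown. TG blocks the calcium pump of the endoplasmic reticulum (ER) and so causes ER stress. Poly(A) RNA was sequenced from 8 groups of 4 libraries, 32 in all. The groups were siCTRL, siCTRL with TG, siMOCOS and siMOCOS with TG in each line, and each siMOCOS group holds libraries of both siRNAs. No source used here gives the TG dose or time. No group received interferon, as far as the labels say.

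Interferons are secreted proteins that bind receptors on the cell surface and switch on JAK kinases, which phosphorylate STAT proteins. Type I interferon assembles STAT2 and IRF9 into a complex that binds the interferon-stimulated response element (ISRE) in the promoters of antiviral genes. Interferon gamma acts through the GAS element, and IRF1 is a classical GAS-driven gene. Many of these antiviral genes also keep a basal level without added interferon, and some respond to the RNA sensors or to NF-kB. LNCaP has been described as poorly responsive to interferon, with low JAK1.

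Depth ran from 7507226 counts (LNCaP siMOCOS column 4) to 27088570 counts (LNCaP siMOCOS TG column 2). Levels are given as CPM, counts per 1000000 counts of a library, on 1 scale for all libraries, and they compare libraries for 1 gene, not 1 gene with another, because they are not divided by length. A gene was called where edgeR's quasi-likelihood test gave a Benjamini-Hochberg adjusted p under 0.05 over all genes tested. MOCOS itself fell in all 4 knockdown comparisons, by log2 -3.20 and -2.57 in C4-2B without and with TG and by log2 -2.72 in both LNCaP comparisons. All 10 luminal prostate markers were present, with group means from 26.9 to 1760 CPM. Of 16 markers of immune, stromal and endothelial cells, 11 stayed under 1 CPM in every group, and CD2 and NKG7 had no count in any library, which allows up to 0.00535 CPM over all libraries. The table's columns do not say which siRNA a knockdown library received, so the 4 were pooled. In all 4 knockdown groups, columns 1 and 2 deviated from the group mean together, as did columns 3 and 4 (correlations over genes of 0.338 to 0.794 within these pairs and -0.925 to -0.524 across them). The C4-2B siCTRL replicates 3 and 4 also deviated together (0.606, and -0.68 to -0.515 with replicates 1 and 2). In each siCTRL group 1 library lay farthest from its group mean, namely replicate 2 (no TG) and replicate 3 (TG) in C4-2B and replicate 4 of both groups in LNCaP. The labels call the libraries biological replicates without saying how they were separated, so p-values measure the spread between these libraries.

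Reference promoters show what most members share. Of the 37 members, 30 had a RefSeq promoter (GRCh38.p14, 250 bases before to 50 after the start site), and 20 of these 30 (66.7%) held 2 copies of GAAA with 2 free bases between them, on either strand, the core of the ISRE. Of all 27305 genes with a promoter, 4.38% held it. The GAS pattern TTCNNNGAA, which reads the same on both strands, was in 9 members (30%) against 9.38% of all genes. For NF-kB only an exact run of letters with no free bases was searched. It was in 0 of 30 members against 0.227% of all genes. So rare a sequence cannot tell members from other genes with 30 promoters, and NF-kB sites with other letters were not tested. Windows of 30 bases are shown for members whose levels the results below turn on, 5′ to 3′ on the strand that reads as the pattern, with the match in capitals.

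OAS3: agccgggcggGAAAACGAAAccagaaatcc
DDX60: gaggagaaagGAAACCGAAActcccgccgg
IFIT5: tgaaacttaaGAAATCGAAActaaacgtaa
IFIT3: aaggggaaagGAAAGTGAAActgatggaac
MX1: tttattcacgGAAAGAGAAAcagagtgacc
ISG20: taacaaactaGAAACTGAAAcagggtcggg
IRF1: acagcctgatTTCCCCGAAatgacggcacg

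The OAS3 window lies at chr12:112938452-112938481 (plus strand), 12 bases before the start site, and the DDX60 window at chr4:168318786-168318815 (minus strand), 53 bases before it. The IFIT5 window is at chr10:89414539-89414568 (minus strand) and the IFIT3 window at chr10:89332468-89332497 (minus strand), 19 and 51 bases before their starts. MX1 has its match at chr21:41431844-41431873 (minus strand), 196 bases before the start, and ISG20 at chr15:88638937-88638966 (plus strand), 69 bases before it. The IRF1 match is the GAS pattern, at chr5:132490878-132490907 (minus strand), 124 bases before the start. Of members that were called lower in at least 1 knockdown comparison, 12 of the 15 with a promoter entry held the ISRE pattern. Of members that rose with TG in siCTRL cells of either line, 4 of 8 held it. A match describes these letters and is not a measured binding site.

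MOCOS knockdown lowered part of the interferon response genes in both lines, and with all libraries none was called higher. Without TG, 9 of 32 tested members were called lower in C4-2B (28.1%, against 8.14% of all genes) and 10 of 31 in LNCaP (32.3%, against 9.73%). With TG, 11 of 32 were called lower in C4-2B (34.4%, against 7.6% of all genes) and 11 of 31 in LNCaP (35.5%, against 10.2%). By edgeR, no member was called higher in any of the 4, where 9.09%, 9.21%, 6% and 11.7% of all genes were higher (C4-2B without and with TG, then LNCaP). At an unadjusted p under 0.05, 1 member was higher (HERC6, in C4-2B without TG), and DESeq2 and limma voom also called 0 higher. Without siMOCOS column 3 or column 4 the C4-2B comparison without TG called HERC6 higher, and without siCTRL TG replicate 2 ISG20 was called higher in LNCaP with TG. The median log2 change of the tested members was -0.30 and -0.34 in C4-2B and -0.45 and -0.41 in LNCaP, without and with TG, while the median over all genes lay between -0.02 and 0.01. Of 30 members tested in both lines, OAS3, USP18, DDX60 and IFIT5 were lower in all 4 comparisons (13.3%, against 3.32% of all genes), 0 were higher in all 4 (against 1.49%), and 18 were lower in at least 1 (60%, against 18.4%). Without TG, the summed level of the 16 immune, stromal and endothelial markers moved in the opposite direction. It ran from 5.97 to 11.3 CPM in C4-2B siCTRL and from 12.8 to 14.8 CPM in siMOCOS. In LNCaP it ran from 11.4 to 15.3 CPM and from 15.9 to 25.4 CPM. With TG the C4-2B ranges overlapped, at 15.0 to 23.1 CPM in siCTRL and 19.9 to 29.75 CPM in siMOCOS. The LNCaP ranges with TG were 17.3 to 23.4 CPM and 26.7 to 35.8 CPM. Most of this sum came from COL1A1, CD68 and VWF, and 11 of the 16 markers stayed under 1 CPM in every group. COL3A1 and VWF were called higher in the comparisons without TG, CD2 and NKG7 were at 0, and the part of these markers in the result was not tested. In these bulk libraries fewer expressing cells and less RNA per cell cannot be told apart.

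By role, of 14 effectors tested in each line, 5 and 5 fell in C4-2B without and with TG and 5 and 4 in LNCaP. Of all genes, 8.14% and 7.6% fell in C4-2B without and with TG, and 9.73% and 10.2% in LNCaP. The other roles hold 2 to 4 tested genes each, too few to be read against these shares. Of the 4 tested oligoadenylate synthetase and PKR genes, 2 fell in each of the 4 comparisons. Of the RNA sensors, 1 and 2 of 4 fell in C4-2B and 2 of 3 in LNCaP in both. Of the 4 genes of the ISG15 system 1 fell each time, USP18. Of the 4 transcription factors 1 fell (IRF1, in C4-2B with TG), and both PARP genes fell in LNCaP with TG.

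**Figure D1:**
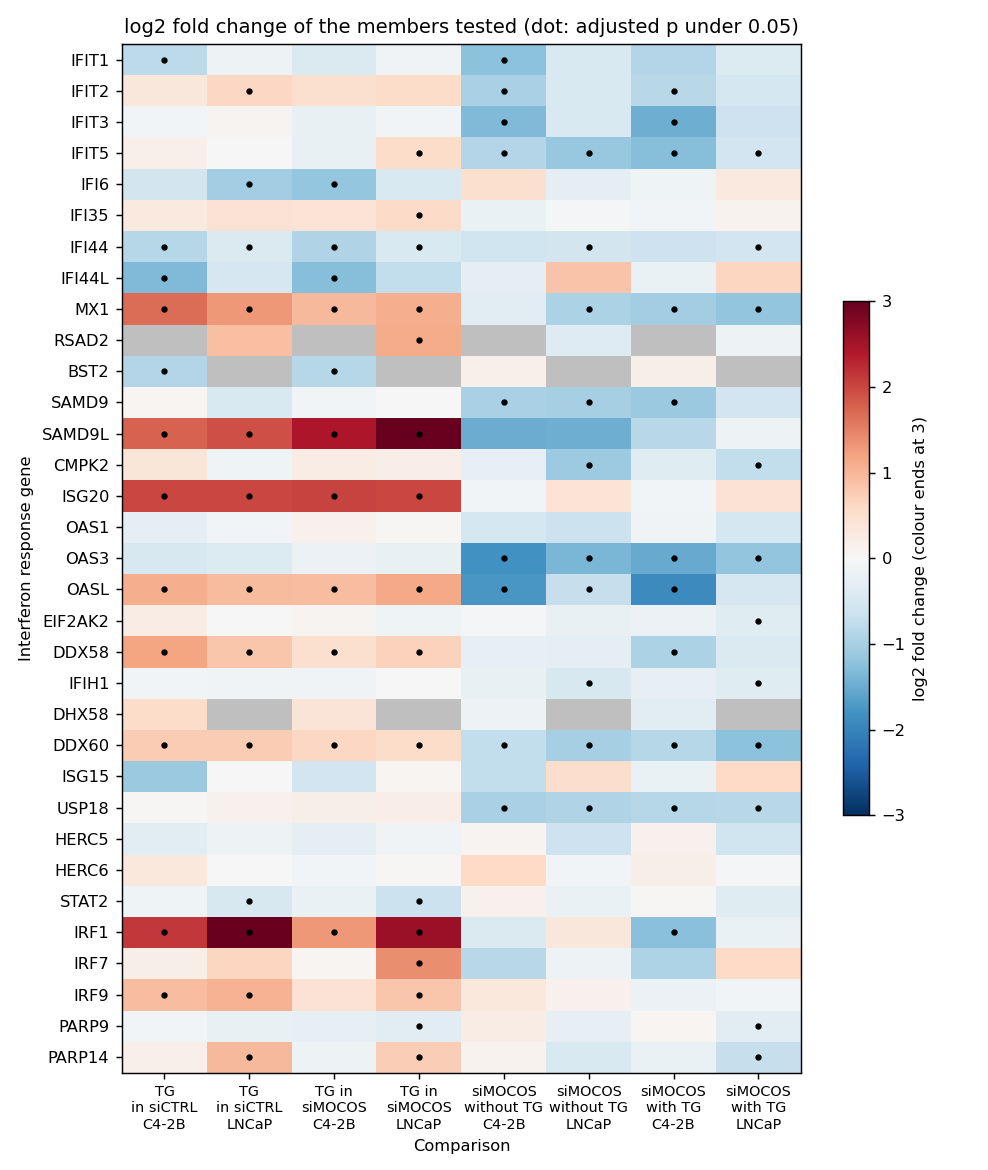
log2 fold change (colour) of the 33 tested members (rows) in 8 comparisons within a line (columns), with a dot where the adjusted p was under 0.05 and grey where a member was not tested in that line. The knockdown columns at the right have dots on blue cells for OAS3, USP18, DDX60 and IFIT5 in all 4, and no dot on a red cell, while the TG columns at the left hold dots of both colours.

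In 3 of the 4 comparisons the largest called fall of a member was in the 2′-5′ oligoadenylate synthetase family. It was that of OAS3 in both lines without TG, and that of OASL, which lacks the activity, in C4-2B with TG. Active synthetases make the second messenger that activates RNase L. OAS3, the largest of them, stood at 40.1, 65.2, 47.0 and 42.4 CPM in the C4-2B siCTRL libraries and at 20.0, 20.5, 7.29 and 7.76 CPM in siMOCOS columns 1 to 4 (log2 change -1.82, SE 0.38, adjusted p = 0.00292). With TG the C4-2B values were 32.8, 33.4, 43.2 and 29.8 CPM in siCTRL and 17.1, 18.5, 6.88 and 5.77 CPM in siMOCOS (log2 change -1.50, SE 0.38, adjusted p = 0.0106). No knockdown library reached the lowest siCTRL library, and columns 3 and 4 lay well below columns 1 and 2. In LNCaP, OAS3 was 38.5, 42.5, 43.0 and 48.6 CPM in siCTRL and 22.6, 24.8, 9.59 and 9.85 CPM in siMOCOS (log2 change -1.37, SE 0.28, adjusted p = 0.00287). With TG it was 36.7, 31.5, 29.2 and 32.1 CPM in siCTRL and 19.4, 17.9, 8.83 and 9.78 CPM in siMOCOS (log2 change -1.18, SE 0.28, adjusted p = 0.00571). The same step between the column pairs was present in all 4 knockdown groups.

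OASL, a synthetase-like protein that has lost the catalytic activity and promotes RIG-I signalling, was called lower in 3 of the 4. Its C4-2B levels were 2.34, 1.92, 2.87 and 2.66 CPM in siCTRL and 0.678, 0.837, 0.630 and 0.781 CPM in siMOCOS (log2 change -1.74, SE 0.22, adjusted p = 2.36e-05). With TG they were 5.67, 5.65, 5.50 and 4.22 CPM and 1.21, 1.21, 1.41 and 1.64 CPM (log2 change -1.91, SE 0.20, adjusted p = 4.01e-06). Here all 4 knockdown columns were alike and far below every siCTRL library. In LNCaP, OASL was 4.67, 5.53, 4.60 and 5.46 CPM in siCTRL and 2.77, 3.28, 3.76 and 2.86 CPM in siMOCOS (log2 change -0.70, SE 0.21, adjusted p = 0.0303). That call was lost without siCTRL replicates 2 (0.0680) or 4 (0.0696), or without siMOCOS columns 1 (0.0738), 2 (0.0658) or 4 (0.0597), each leaving the adjusted p shown in brackets, as for every call lost this way below. With TG, LNCaP OASL was 9.01, 12.5, 8.87 and 8.39 CPM in siCTRL and 5.64, 5.07, 8.25 and 7.97 CPM in siMOCOS and was not called (log2 change -0.51, SE 0.19, adjusted p = 0.0586). The difference between the lines in the knockdown response with TG was itself called (log2 change 1.40, SE 0.26, adjusted p = 0.0154), the 1 member of 33 called higher there, where 0.191% of all genes were. Without the 4 siCTRL libraries farthest from their group means it was not called (adjusted p = 0.062). OAS1 was not called in any knockdown comparison (log2 -0.66 to -0.10). The protein kinase EIF2AK2 (PKR), which halts translation on double-stranded RNA, was called lower in LNCaP with TG, at 76.3, 73.7, 87.2 and 88.5 CPM in siCTRL and 55.6, 65.2, 64.2 and 65.0 CPM in siMOCOS (log2 change -0.36, SE 0.10, adjusted p = 0.0172).

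USP18, the protease that removes ISG15 from proteins and restrains the type I interferon receptor, fell by similar amounts in all 4 comparisons (gene at chromosome 22, 18149899 to 18177397, plus strand, GRCh38). In C4-2B it was 18.8, 18.8, 18.7 and 19.5 CPM in siCTRL and 12.4, 10.8, 7.77 and 7.91 CPM in siMOCOS (log2 change -0.97, SE 0.16, adjusted p = 0.000370). With TG it was 20.2, 20.2, 18.2 and 19.8 CPM in siCTRL and 12.1, 12.3, 9.59 and 8.69 CPM in siMOCOS (log2 change -0.85, SE 0.16, adjusted p = 0.00115). In LNCaP, USP18 was 15.4, 13.3, 16.3 and 17.5 CPM in siCTRL and 8.10, 9.08, 8.50 and 8.14 CPM in siMOCOS (log2 change -0.91, SE 0.16, adjusted p = 0.000712). With TG it was 16.7, 20.4, 16.3 and 14.6 CPM in siCTRL and 11.3, 10.8, 8.14 and 7.55 CPM in siMOCOS (log2 change -0.82, SE 0.15, adjusted p = 0.000862). The siCTRL and siMOCOS libraries did not overlap in any of the 4. The other members of the ISG15 system, ISG15 itself and the ligases HERC5 and HERC6, were not called in any knockdown comparison. HERC5 came nearest, in LNCaP with TG at 6.74, 6.5, 7.09 and 6.25 CPM in siCTRL and 3.19, 3.19, 5.91 and 5.10 CPM in siMOCOS (adjusted p = 0.0554).

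Among the RNA sensors, DDX60, a helicase that binds viral RNA and assists RIG-I, fell in all 4 comparisons. C4-2B had 8.04, 5.50, 6.20 and 5.75 CPM in siCTRL and 4.85, 4.29, 2.94 and 3.42 CPM in siMOCOS (log2 change -0.73, SE 0.20, adjusted p = 0.0162), a call lost without siCTRL replicate 1 (0.0587), or without siMOCOS column 3 (0.0547). With TG it had 11.8, 9.71, 12.0 and 9.92 CPM in siCTRL and 5.66, 5.27, 7.71 and 4.81 CPM in siMOCOS (log2 change -0.87, SE 0.19, adjusted p = 0.00412). LNCaP had 18.9, 15.2, 14 and 17.1 CPM in siCTRL and 8.38, 6.4, 9.29 and 9.14 CPM in siMOCOS (log2 change -1.005, SE 0.19, adjusted p = 0.00139). With TG it had 23.5, 23.2, 27.4 and 36.3 CPM in siCTRL and 9.85, 9.25, 13.6 and 13.8 CPM in siMOCOS (log2 change -1.23, SE 0.18, adjusted p = 0.000106). The groups did not overlap in any of these. DDX58, the gene of RIG-I, was called lower in C4-2B with TG, at 16.5, 13.7, 16.8 and 15.7 CPM in siCTRL and 6.14, 6.77, 10.8 and 8.21 CPM in siMOCOS (log2 change -0.95, SE 0.17, adjusted p = 0.000738). IFIH1, the gene of MDA5, was called lower in LNCaP, by log2 -0.47 without TG and log2 -0.35 with TG, the latter not without siCTRL TG replicate 3 (0.0709), or without siMOCOS TG column 2 (0.0574). DHX58, the gene of LGP2, was tested in C4-2B alone and was not called.

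**Figure D2:**
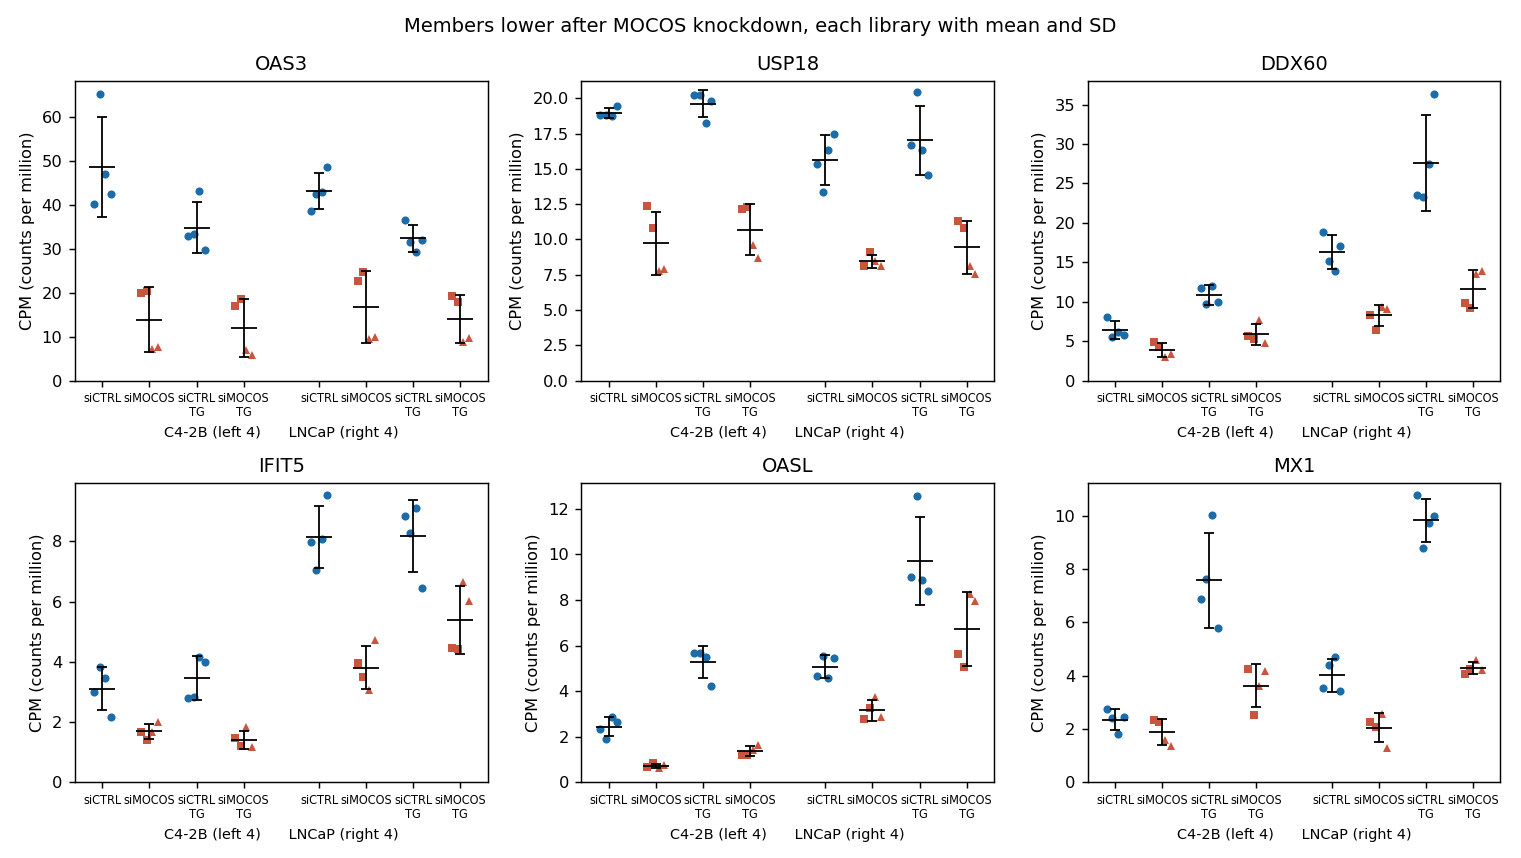
CPM of 6 members in each library (blue, siCTRL, and red, siMOCOS, with squares for knockdown columns 1 and 2 and triangles for columns 3 and 4), by line and treatment, with the group mean and SD as bars. Every red symbol for OAS3, USP18 and DDX60 lies below every blue symbol of its line and treatment, and for OAS3 the triangles lie below the squares.

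The IFIT genes lie side by side on chromosome 10 (GRCh38, from 89283694 to 89421001) and code for proteins that bind viral RNA ends. They fell together in C4-2B. IFIT3 was 2.29, 2.91, 2.28 and 1.72 CPM in C4-2B siCTRL and 0.887, 1.05, 1.05 and 0.683 CPM in siMOCOS (log2 change -1.33, SE 0.29, adjusted p = 0.00370), and with TG 1.85, 2.16, 2.13 and 2.53 CPM and 0.420, 0.677, 1.25 and 0.721 CPM (log2 change -1.47, SE 0.29, adjusted p = 0.00154). IFIT1 was 3.12, 3.75, 3.13 and 3.38 CPM and 1.41, 1.83, 0.787 and 1.66 CPM without TG (log2 change -1.24, SE 0.31, adjusted p = 0.00901) and was not called with TG (adjusted p = 0.0605). IFIT2 was 10.8, 12.6, 9.07 and 8.69 CPM and 6.57, 5.23, 4.99 and 4.25 CPM without TG (log2 change -0.98, SE 0.22, adjusted p = 0.00414), and it was also called lower with TG (log2 -0.84). None of these 3 was called in LNCaP, with log2 values from -0.62 to -0.41, and the difference between lines was not called for any of them. From columns 1 and 2 alone all 3 were called lower in LNCaP, without and with TG (log2 -1.37 to -0.69). From columns 3 and 4 alone none of them was called there (log2 -0.37 to 0.13). IFIT5 was called in both lines. In C4-2B it was 3.01, 3.83, 3.46 and 2.15 CPM in siCTRL and 1.67, 1.41, 1.68 and 2.00 CPM in siMOCOS (log2 change -0.89, SE 0.24, adjusted p = 0.0156), a call lost without siCTRL replicate 2 (0.0503), or without siMOCOS column 2 (0.0531). With TG it was 2.80, 2.85, 4.16 and 4.00 CPM and 1.47, 1.21, 1.82 and 1.16 CPM (log2 change -1.27, SE 0.24, adjusted p = 0.00107). In LNCaP it was 7.99, 7.03, 8.09 and 9.53 CPM in siCTRL and 3.98, 3.50, 3.06 and 4.71 CPM in siMOCOS (log2 change -1.13, SE 0.20, adjusted p = 0.000740). In LNCaP with TG the groups overlapped, at 8.84, 8.28, 9.12 and 6.46 CPM and 4.46, 4.44, 6.65 and 6.02 CPM (log2 change -0.58, SE 0.18, adjusted p = 0.0313), and the call was lost without siCTRL TG replicates 1 (0.0594) or 3 (0.0718), or without siMOCOS TG columns 1 (0.0798) or 2 (0.0783). Exons of IFIT2 overlap those of LIPA on the opposite strand, and no source used here states the strand setting of the counting. Exons of IRF1, MX1, OAS1, EIF2AK2 and PARP9 likewise overlap a gene on the opposite strand, and those of IRF9 and IFIT2 a gene on the same strand, so reads of the partners may be included.

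MX1, a dynamin-like GTPase that traps viral nucleocapsids, was called lower in 3 of the 4 comparisons. In LNCaP it was 3.55, 4.39, 4.68 and 3.42 CPM in siCTRL and 2.27, 2.08, 2.57 and 1.28 CPM in siMOCOS (log2 change -0.96, SE 0.19, adjusted p = 0.00252), and with TG 10.8, 8.80, 9.73 and 10.0 CPM and 4.07, 4.26, 4.58 and 4.22 CPM (log2 change -1.17, SE 0.17, adjusted p = 0.000108). In C4-2B with TG it was 6.88, 7.64, 10.0 and 5.81 CPM in siCTRL and 4.25, 2.52, 3.60 and 4.17 CPM in siMOCOS (log2 change -1.03, SE 0.23, adjusted p = 0.00466), and without TG it was not called (log2 -0.33). The siCTRL and siMOCOS libraries did not overlap in the 3 called comparisons. SAMD9, a virus restriction factor, was called lower in C4-2B by log2 -0.96 without TG and log2 -1.10 with TG. In LNCaP it was 10.4, 10.2, 8.17 and 9.80 CPM in siCTRL and 4.83, 3.42, 5.63 and 5.86 CPM in siMOCOS without TG (log2 change -1.004, SE 0.27, adjusted p = 0.0168). The C4-2B call without TG was lost without siCTRL replicates 1 (0.0575), 2 (0.0705) or 3 (0.0502), or without siMOCOS columns 2 (0.0504), 3 (0.0687) or 4 (0.0715), and the LNCaP call was lost without siMOCOS column 2 (0.0671). Without the 4 siCTRL libraries farthest from their group means, the adjusted p of these calls was 0.057 and 0.0539.

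CMPK2, a mitochondrial nucleotide kinase next to RSAD2, was called lower in LNCaP, at 3.49, 3.91, 3.75 and 3.61 CPM in siCTRL and 2.27, 1.71, 1.19 and 1.86 CPM in siMOCOS (log2 change -1.08, SE 0.25, adjusted p = 0.00747). With TG it was 3.76, 3.57, 3.27 and 2.92 CPM and 1.37, 1.47, 2.71 and 2.36 CPM (log2 change -0.75, SE 0.24, adjusted p = 0.0314), a call lost without siCTRL TG replicates 1 (0.0668), 2 (0.0504) or 3 (0.0545), or without siMOCOS TG columns 1 (0.0944) or 2 (0.0924). Its exons overlap those of RSAD2 on the opposite strand. IFI44 was called lower in LNCaP by log2 -0.55 without TG and log2 -0.58 with TG. The transcription factor IRF1 was called lower in C4-2B with TG, at 10.6, 15.4, 11.5 and 10.4 CPM in siCTRL and 2.99, 3.72, 5.89 and 7.01 CPM in siMOCOS (log2 change -1.26, SE 0.25, adjusted p = 0.00190), with no overlap. STAT2, IRF7 and IRF9 were not called in any of the 4. PARP9 and PARP14, ADP-ribosyltransferases that act with the STAT pathway, were called lower in LNCaP with TG (log2 -0.34 and log2 -0.69), PARP14 not without siCTRL TG replicates 1 (0.0567) or 3 (0.0568). IFI6, IFI35, IFI44L, SAMD9L and ISG20, tested in both lines, were not called in any knockdown comparison, nor were BST2 in C4-2B and RSAD2 in LNCaP.

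Split by column pair, some members were low in all knockdown libraries and others in 1 pair. Fitting columns 1 and 2 alone called 10, 12, 13 and 20 members lower (C4-2B without and with TG, then LNCaP), and columns 3 and 4 alone called 12, 13, 13 and 9. The shares of all genes called in these fits are not given here, so the counts do not show a difference between the pairs that is particular to the members. Columns 1 and 2 alone called HERC6, PARP9 and PARP14 higher in C4-2B without TG, and columns 3 and 4 alone called STAT2 higher in C4-2B and IRF1 higher in LNCaP, both without TG. Both pairs were set against the same siCTRL libraries. OAS3 was called lower by each pair in all 4, by log2 -1.26, -0.94, -0.84 and -0.81 for columns 1 and 2, and by -2.70, -2.44, -2.12 and -1.80 for columns 3 and 4. USP18 was also called lower by each pair in all 4. In LNCaP with TG the pairs differed most in the number of members called, which was not set against all genes. There IFIT2 was 14.3, 16.9, 33.3 and 33.8 CPM in columns 1 to 4, against 36.3, 35.8, 39.3 and 32 CPM in siCTRL. DDX58 was 12.1, 13.6, 23.7 and 22.4 CPM, against 24.2, 22.1, 26.9 and 24.4 CPM in siCTRL. IRF1 was 10.0, 10.6, 22.2 and 22.1 CPM, against 19.1, 18.9, 17.4 and 20.4 CPM in siCTRL. For these 3 genes columns 1 and 2 lay far below siCTRL, while columns 3 and 4 lay at its level. They were not called in the pooled comparison. A step of the opposite kind, with columns 3 and 4 low, was seen in C4-2B without TG for PARP14, at 66.1, 61.0, 27.9 and 27.8 CPM in siMOCOS against 49.1, 47.5, 37 and 34.9 CPM in siCTRL. The difference between the pairs was not tested, and whether a pair is 1 siRNA is not named by the columns. Leaving out 1 library moved the count lower in LNCaP with TG between 7 (without siCTRL TG replicate 3) and 17 (without siMOCOS TG column 3).

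**Figure D3:**
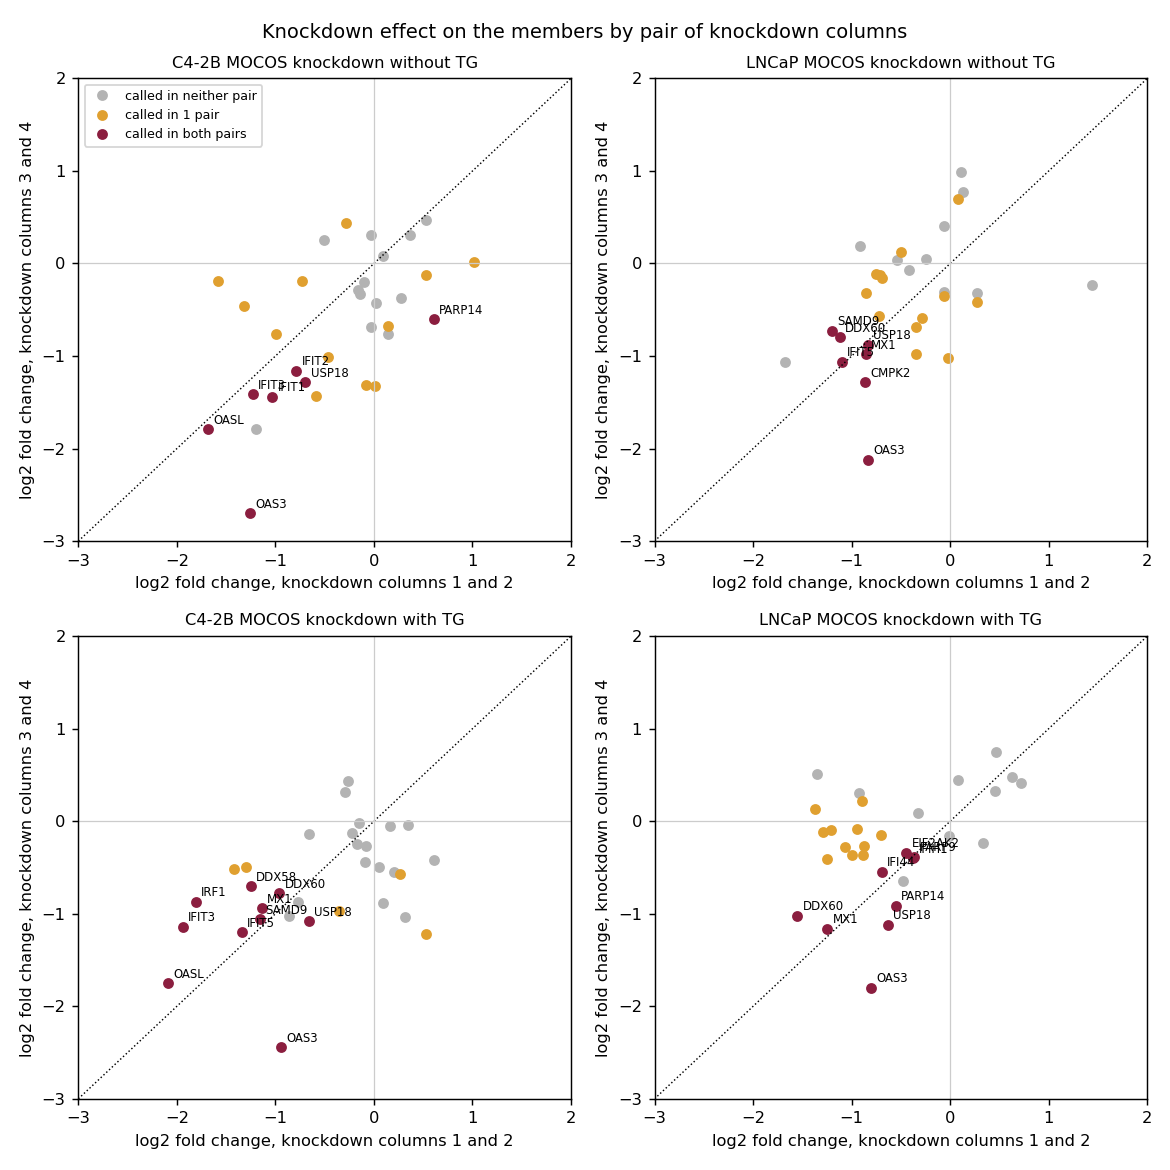
log2 fold change of each tested member after knockdown, from columns 1 and 2 (x axis) and from columns 3 and 4 (y axis) against the same siCTRL libraries, in 4 comparisons, with members called by each pair named (PARP14 in C4-2B without TG in opposite directions). OAS3 lies below the dotted line of equal change in all 4 panels, and in LNCaP with TG a group of points called by 1 pair lies near 0 on the y axis and well below 0 on the x axis.

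TG changed members in both directions. In siCTRL cells of C4-2B, 8 of 32 were called higher (25%, against 21.2% of all genes) and 4 lower (12.5%, against 19.3%). In LNCaP, 10 of 31 were higher (32.3%, against 24.6%) and 3 lower (9.68%, against 25.1%). The median log2 change of the tested members was 0.15 in C4-2B and 0.01 in LNCaP, against -0.01 and -0.04 over all genes. Of the 30 tested in both lines, MX1, SAMD9L, ISG20, OASL, DDX58, DDX60, IRF1 and IRF9 rose in both (26.7%, against 17.3% of all genes), and IFI44 fell in both (3.33%, against 16.1%). SAMD9L had enough reads to test only through the TG libraries, so its place among the rises was set in part by the filter. Along with these changes, the sum of the 16 immune, stromal and endothelial markers went from 5.97 to 11.3 CPM to 15.0 to 23.1 CPM in C4-2B. In LNCaP it went from 11.4 to 15.3 CPM to 17.3 to 23.4 CPM. Most of the sum came from COL1A1, CD68 and VWF, and the part of these markers in the result was not tested. VWF was called higher in both lines (log2 2.30 and 1.38), and CD2 and NKG7 stayed at 0.

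IRF1, a transcription factor of antiviral and antigen presentation genes, rose most in both lines. It went from 2.62, 2.42, 3.46 and 2.51 CPM to 10.6, 15.4, 11.5 and 10.4 CPM in C4-2B (log2 change 2.12, SE 0.27, adjusted p = 9.24e-06). Its LNCaP level went from 2.08, 2.28, 2.13 and 2.13 CPM to 19.1, 18.9, 17.4 and 20.4 CPM (log2 change 3.13, SE 0.27, adjusted p = 4.11e-08). The groups were far apart in both lines. IRF9, the DNA-binding part of the ISRE complex, went from 4.62, 4.63, 5.53 and 4.53 CPM to 11.2, 10.3, 9.49 and 8.49 CPM in LNCaP (log2 change 1.03, SE 0.18, adjusted p = 0.000106) and rose by log2 0.93 in C4-2B. STAT2, its partner, was not called in C4-2B, and in LNCaP it was called lower, from 69.1, 61.4, 82.0 and 81.1 CPM to 56.6, 42, 46.8 and 64.0 CPM (log2 change -0.48, SE 0.19, adjusted p = 0.0407). That call was lost without siCTRL replicates 1 (0.0538), 3 (0.102) or 4 (0.0953), or without siCTRL TG replicates 1 (0.0776), 2 (0.173) or 3 (0.149). IRF7, which amplifies type I interferon, was not called in siCTRL cells of either line.

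ISG20, an exonuclease that degrades viral RNA, rose by nearly the same amount in both lines. It went from 2.46, 1.58, 4.44 and 3.16 CPM to 12.6, 12.5, 5.80 and 16.4 CPM in C4-2B (log2 change 2.01, SE 0.35, adjusted p = 0.000225) and from 4.45, 4.03, 3.92 and 3.05 CPM to 12.8, 22.8, 13.7 and 12.5 CPM in LNCaP (log2 change 1.99, SE 0.22, adjusted p = 1.00e-06). The lowest C4-2B value with TG came from replicate 3, the library farthest from its group mean. MX1 went from 2.73, 2.42, 1.83 and 2.44 CPM to 6.88, 7.64, 10.0 and 5.81 CPM in C4-2B (log2 change 1.68, SE 0.24, adjusted p = 3.83e-05) and rose in LNCaP by log2 1.29. SAMD9L, a paralog of SAMD9, rose from a level near the limit of counting, 0.112, 0.5, 0.0653 and 0.144 CPM, to 0.637, 0.475, 1.04 and 0.528 CPM in C4-2B (log2 change 1.76, SE 0.52, adjusted p = 0.0113), and the groups overlapped. Its LNCaP level went from 0.281, 0.180, 0 and 0 CPM to 0.613, 0.460, 0.678 and 0.417 CPM (log2 change 1.92, SE 0.75, adjusted p = 0.0347), and that call was lost without siCTRL replicates 2 (0.0563), 3 (0.0863) or 4 (0.0789), or without siCTRL TG replicates 1 (0.0561) or 3 (0.0710). The sensors DDX58 and DDX60 rose by log2 1.18 and 0.76 in C4-2B and by log2 0.83 and 0.76 in LNCaP. DDX58 in C4-2B went from 7.31, 6.08, 7.11 and 6.96 CPM to 16.5, 13.7, 16.8 and 15.7 CPM. OASL rose by log2 1.09 in C4-2B and 0.94 in LNCaP. In LNCaP alone IFIT2 (log2 0.63) and PARP14 (log2 0.97) were also called higher. The IFIT2 call was lost without siCTRL replicates 1 (0.0506), 2 (0.0775), 3 (0.0625) or 4 (0.0527), or without siCTRL TG replicate 3 (0.0504).

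The members that fell with TG in siCTRL cells were effectors, apart from STAT2. IFI44L went from 6.97, 5.66, 6.85 and 5.24 CPM to 2.87, 1.77, 3.81 and 1.47 CPM in C4-2B (log2 change -1.33, SE 0.37, adjusted p = 0.00783), and IFI44 from 16.6, 12.8, 12.7 and 11.6 CPM to 8.16, 6.99, 6.14 and 8.29 CPM (log2 change -0.86, SE 0.27, adjusted p = 0.0185). Neither pair of groups overlapped, and the IFI44 call was lost without siCTRL replicate 1 (0.0559), or without siCTRL TG replicate 3 (0.0512). In LNCaP, IFI44 went from 15.4, 15.3, 15.6 and 12.6 CPM to 9.63, 10.8, 10.7 and 12.6 CPM (log2 change -0.42, SE 0.14, adjusted p = 0.0150), where the groups overlapped, and the call was lost without siCTRL TG replicates 1 (0.0978), 2 (0.0645) or 3 (0.0742). IFI6, a mitochondrial protein that blocks apoptosis, went from 2.31, 3.07, 3.58 and 5.18 CPM to 1.75, 1.90, 2.16 and 0.938 CPM in LNCaP (log2 change -1.05, SE 0.32, adjusted p = 0.0111), lost without siCTRL TG replicate 4 (0.0514). BST2 (tetherin), which holds budding virus on the membrane, was 1.79, 1.33, 1.89 and 2.15 CPM and 1.34, 0.949, 0.644 and 0.980 CPM in C4-2B (log2 change -0.89, SE 0.34, adjusted p = 0.0431), with overlap, and this was lost without siCTRL replicates 1 (0.0670), 3 (0.0808) or 4 (0.126), or without siCTRL TG replicates 2 (0.0779), 3 (0.113) or 4 (0.0767). IFIT1 was 3.12, 3.75, 3.13 and 3.38 CPM and 1.21, 2.03, 2.73 and 1.73 CPM (log2 change -0.79, SE 0.30, adjusted p = 0.0430), and this was lost without siCTRL replicates 1 (0.0576), 2 (0.0886), 3 (0.0633) or 4 (0.0897), or without siCTRL TG replicates 1 (0.122), 2 (0.0680) or 4 (0.0966). Leaving out 1 library at a time left 1 to 3 of the 4 falls called in C4-2B and from 1 to 4 members lower in LNCaP, where 3 were called with all libraries.

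**Figure D4:**
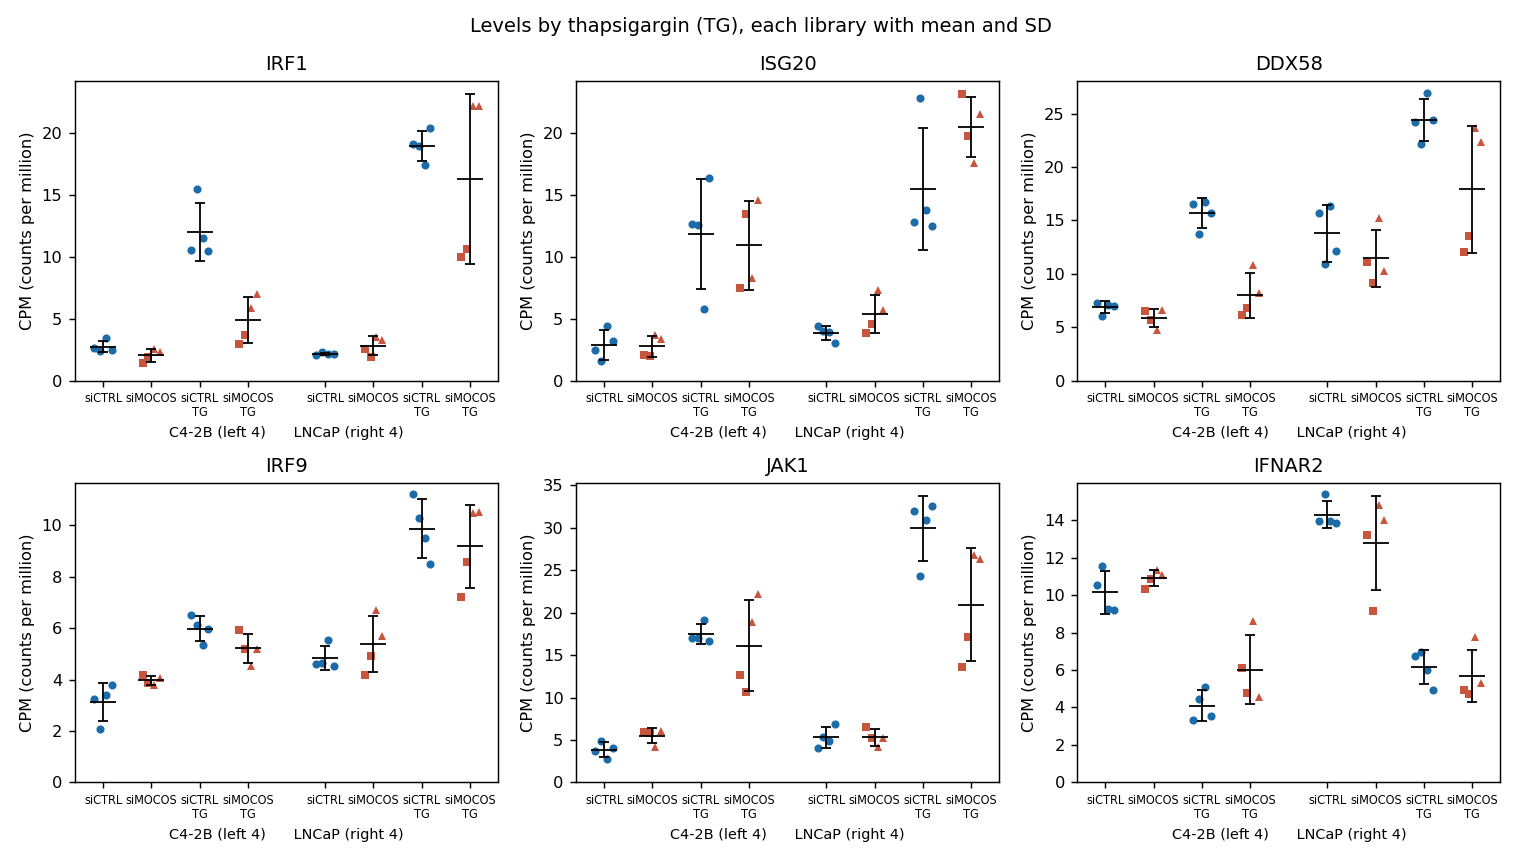
CPM of 4 members (IRF1, ISG20, DDX58, IRF9) and of the pathway genes JAK1 and IFNAR2 in each library, marked as siCTRL (blue) or siMOCOS (red, squares for columns 1 and 2 and triangles for columns 3 and 4), with group mean and SD. The siCTRL TG points lie above the siCTRL points for the 4 members and JAK1 and below them for IFNAR2, and in LNCaP siMOCOS TG the IRF1, DDX58 and JAK1 triangles lie above the squares.

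In knockdown cells TG also changed members in both directions. MX1, SAMD9L, ISG20, OASL, DDX58, DDX60 and IRF1 were called higher with TG in all 4 comparisons, siCTRL and siMOCOS of both lines (23.3% of 30, against 13.7% of all genes), and IFI44 was called lower in all 4 (3.33%, against 11.2%). In C4-2B knockdown cells 7 of 32 rose, against 20.7% of all genes, and 4 fell, against 17.2%. In LNCaP knockdown cells 13 of 31 rose, against 25.1%, and 3 fell, against 21.9%. IRF1 went from 1.41, 1.88, 2.52 and 2.34 CPM to 2.99, 3.72, 5.89 and 7.01 CPM in C4-2B knockdown cells (log2 change 1.30, SE 0.27, adjusted p = 0.000991), where no library overlapped. Its LNCaP level went from 2.56, 1.94, 3.56 and 3.28 CPM to 10.0, 10.6, 22.2 and 22.1 CPM (log2 change 2.59, SE 0.27, adjusted p = 3.98e-07). ISG20 rose by log2 2.02 and 2.00 in the C4-2B and LNCaP knockdown cells, and SAMD9L by log2 2.43 and 3.24. SAMD9L had 5 and 2 counts over the siMOCOS libraries without TG of C4-2B and LNCaP, and 31 and 41 with TG. It had enough reads to test only through the TG libraries, so its place among the rises was set in part by the filter. IRF7 was called higher in LNCaP knockdown cells, from 0.852, 0.819, 1.38 and 0.571 CPM to 2.94, 1.98, 1.49 and 2.87 CPM (log2 change 1.38, SE 0.35, adjusted p = 0.00326). In C4-2B the DDX58 rise was lost without siMOCOS columns 2 (0.0769) or 3 (0.125), or without siMOCOS TG columns 3 (0.168) or 4 (0.0770), the DDX60 rise without siMOCOS columns 3 (0.0686) or 4 (0.0540), or without siMOCOS TG column 3 (0.0771), and the IFI44 fall without siMOCOS columns 1 (0.0708) or 2 (0.0584), or without siMOCOS TG column 3 (0.0532). In LNCaP the DDX58 rise was lost without siMOCOS column 2 (0.0503), or without siMOCOS TG columns 3 (0.0668) or 4 (0.0594), the DDX60 rise without siMOCOS column 2 (0.0880), or without siMOCOS TG columns 3 (0.0826) or 4 (0.0899), and the IFI44 fall without siMOCOS column 1 (0.0582). IFI6 was called lower in C4-2B knockdown cells, from 4.02, 4.87, 4.14 and 4.54 CPM to 2.25, 2.56, 1.82 and 1.08 CPM (log2 change -1.16, SE 0.26, adjusted p = 0.00195), and IFI44L by log2 -1.28, with overlapping groups for IFI44L only. RSAD2 was called higher in LNCaP knockdown cells, from 0.426, 0.596, 1.19 and 1.00 CPM to 0.637, 1.28, 2.13 and 2.46 CPM (log2 change 1.12, SE 0.40, adjusted p = 0.0290), with overlap, and not without siMOCOS columns 1 (0.107) or 2 (0.0885), or without siMOCOS TG columns 3 (0.0856) or 4 (0.117). In LNCaP knockdown cells the falls were those of IFI44, of STAT2 (log2 -0.65) and of PARP9, from 85.7, 79.6, 67.1 and 68.5 CPM to 57.1, 60.9, 60.7 and 55.4 CPM (log2 change -0.31, SE 0.09, adjusted p = 0.00853), without overlap. The count of members called in C4-2B knockdown cells was 11, and 7 without siMOCOS TG column 3. With knockdown columns 1 and 2 alone, 4 of those 11 calls were kept (IRF1, ISG20, IFI44 and IFI44L) and 7 were lost, and with columns 3 and 4 alone 10 were kept. DDX58 in C4-2B knockdown cells went from 6.52, 5.65, 4.72 and 6.59 CPM to 6.14, 6.77, 10.8 and 8.21 CPM, with columns 1 and 2 of both groups close together. In LNCaP knockdown cells columns 1 and 2 alone kept 10 of the 16 calls, and columns 3 and 4 alone kept 12.

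Whether knockdown altered the response to TG was tested as an interaction. By edgeR 0 members were called in C4-2B, where 0.0708% of all genes were, and 0 in LNCaP, where 0.00724% were. At an unadjusted p under 0.05 there were 2 members in C4-2B, DDX58 (log2 change -0.71, SE 0.24, adjusted p = 0.402) and IRF1 (log2 change -0.82, SE 0.37, adjusted p = 0.672), and 0 in LNCaP. DESeq2 and limma voom also called 0. With knockdown columns 1 and 2 alone, DDX58 was called in C4-2B and IRF1 in LNCaP. The shares of all genes called in those fits, and those at the unadjusted threshold, are not given here. These calls and counts are therefore not read as particular to the members.

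Without TG or knockdown, the lines differed in members of several roles. Of the 30 members tested in each line alone, 14 were higher in LNCaP (46.7%, against 21.4% of the genes tested in each line alone) and 5 were lower (16.7%, against 19.5%), in 1 fit of both lines. IFIT5 was higher in LNCaP (log2 change 1.39, SE 0.20, adjusted p = 2.51e-06) and so was DDX60 (log2 change 1.35, SE 0.19, adjusted p = 1.26e-06), with the values given above. SAMD9 was 10.4, 10.2, 8.17 and 9.80 CPM in LNCaP siCTRL and 4.30, 4.75, 3.79 and 2.66 CPM in C4-2B (log2 change 1.32, SE 0.27, adjusted p = 0.000297). These 3 did not overlap between the lines. The other higher members were IFIT1, IFIT2, IFIT3, OASL, DDX58, EIF2AK2, MX1, STAT2, CMPK2, PARP9 and IRF9, with log2 differences of 0.62 to 1.20. IFI44L was 0.281, 0.601, 0.0851 and 0.647 CPM in LNCaP and 6.97, 5.66, 6.85 and 5.24 CPM in C4-2B (log2 change -3.92, SE 0.60, adjusted p = 4.75e-06). PARP14 was 10.7, 8.18, 8.09 and 9.43 CPM and 49.1, 47.5, 37 and 34.9 CPM (log2 change -2.21, SE 0.26, adjusted p = 5.85e-08). IRF7 was 0.675, 1.32, 1.19 and 0.832 CPM and 1.28, 2.33, 3.33 and 4.45 CPM (log2 change -1.49, SE 0.40, adjusted p = 0.00348). The lines overlapped for IRF7 but not for IFI44L and PARP14. ISG15 and IFI35 were also lower in LNCaP, by log2 -1.45 and -0.92. RSAD2, DHX58 and BST2 had enough reads in 1 line only, the line where each is high, so their levels are given with no test. RSAD2 (viperin), which makes a nucleotide that ends viral RNA chains, was 0.788, 1.20, 0.936 and 1.02 CPM in LNCaP siCTRL and 0.223, 0, 0 and 0.215 CPM in C4-2B. DHX58 was 0.0563, 0.240, 0.596 and 0.0925 CPM and 1.56, 1.92, 2.02 and 3.45 CPM, and BST2 had group means of 0.511 and 1.79 CPM. The ISG15 call was lost without C4-2B siCTRL replicates 3 (0.102) or 4 (0.0749), or without LNCaP siCTRL replicates 1 (0.0596), 2 (0.0766) or 4 (0.113). CMPK2 (log2 0.71) was lost without C4-2B siCTRL replicate 4 (0.0551).

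**Figure D5:**
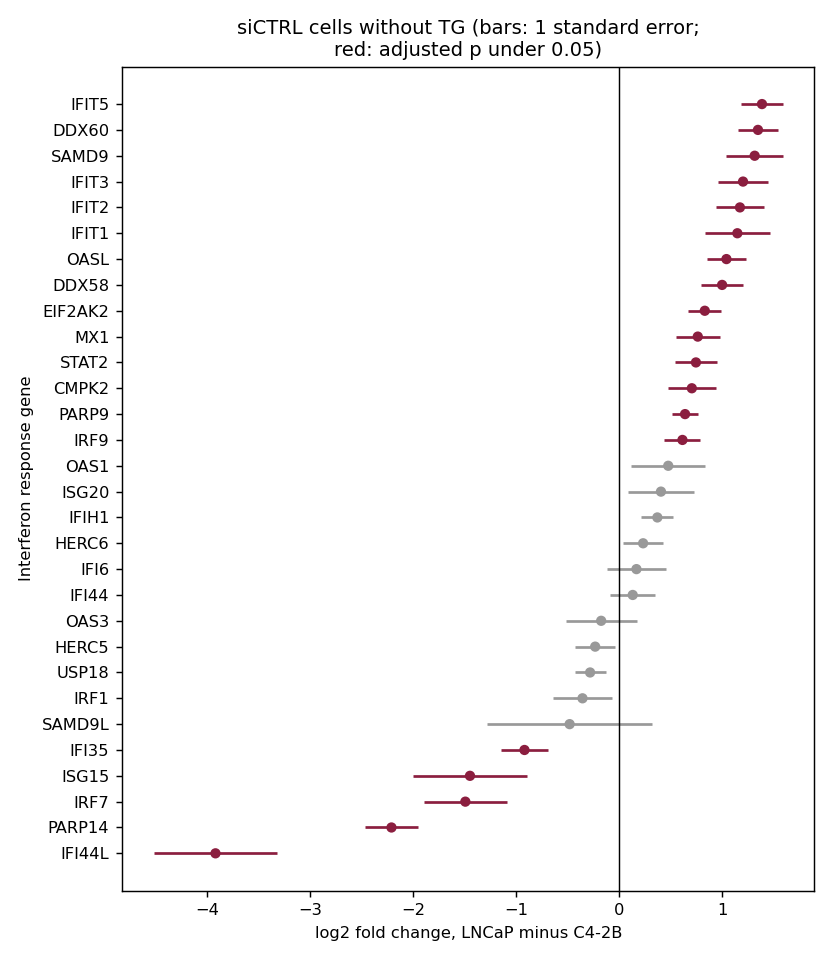
log2 fold change of the 30 members tested in each line alone, between the lines in siCTRL cells without TG (LNCaP minus C4-2B), with a bar of 1 standard error and in red where the adjusted p was under 0.05. IFIT5 lies at the top with 1.39 and IFI44L at the bottom with -3.92, and 14 red points lie to the right of 0 and 5 to the left.

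Differences between the lines in a response were called for 1 member. By edgeR 0 of 33 members differed in the TG response of siCTRL cells, where 0.848% of all genes did, with 2 at an unadjusted p under 0.05 (IRF1 and PARP14, both with the greater rise in LNCaP). By edgeR 0 differed in the knockdown response without TG, where 0.157% of all genes did, with 7 at an unadjusted p under 0.05. The shares of all genes at the unadjusted threshold are not given here. The counts of 2 and 7 are therefore not read as results about the members. DESeq2 and limma voom called 0 in both. With TG, OASL alone was called, as given above.

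Few reads came from the interferons themselves. All 10 ligand genes measured stayed under 1 CPM in every group and were too low to test. IFNA1, IFNA2, IFNK, IFNW1, IFNG and IFNL2 had no count in any of the 32 libraries. IFNB1, the type I interferon that most cells can make, had 0 counts over the 4 C4-2B siCTRL libraries, 2 over those with TG, and 7 over siMOCOS with TG. In LNCaP it had 1 count over the siCTRL libraries and 11 over those with TG, and 18 over siMOCOS with TG. The siMOCOS libraries without TG had 0 in both lines. These are counts summed over 4 libraries, and no test was made.

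Receptor and kinase genes of the pathway were counted in the same fits. JAK1, the kinase shared by all interferon receptors, went from 3.74, 4.83, 2.81 and 4.09 CPM to 17.0, 17.0, 19.2 and 16.6 CPM in C4-2B (log2 change 2.17, SE 0.23, adjusted p = 1.47e-06). Its LNCaP level went from 4.11, 5.29, 4.85 and 6.94 CPM to 31.9, 24.3, 30.9 and 32.6 CPM (log2 change 2.51, SE 0.22, adjusted p = 5.12e-08). No library with TG was near a library without it. IFNAR2, a chain of the type I receptor, went the other way, from 10.6, 11.6, 9.27 and 9.19 CPM to 3.31, 4.44, 5.10 and 3.54 CPM in C4-2B (log2 change -1.31, SE 0.20, adjusted p = 6.25e-05) and by log2 -1.22 in LNCaP. Of the 10 receptor and JAK-STAT genes tested, 3 rose (30%, against 21.2% of all genes) and 2 fell (20%, against 19.3%) with TG in C4-2B. In LNCaP 4 rose (40%, against 24.6%) and 3 fell (30%, against 25.1%). IFNGR1 and JAK2 rose and IFNGR2 fell in both lines, and in LNCaP TYK2 rose and IFNAR1 fell. After knockdown, JAK2 and IFNGR2 were called higher in C4-2B in the comparisons without and with TG (20% of the 10 each time, against 9.09% and 9.21%), and 0 of the 10 were called in LNCaP by edgeR.

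Other lists of the pathway were counted in the same fits. Of 31 further interferon-stimulated genes, 2 were lower and 2 higher after knockdown without TG in C4-2B (6.45% each, against 8.14% and 9.09% of all genes). In LNCaP 9 were lower and 3 higher (29% and 9.68%, against 9.73% and 6%). With TG, 5 were lower and 1 higher in C4-2B (16.1% and 3.23%, against 7.6% and 9.21%), and 10 lower and 1 higher in LNCaP (32.3% and 3.23%, against 10.2% and 11.7%). PLSCR1, a phospholipid scramblase, was among them, at 1.51, 1.17, 1.83 and 2.01 CPM in C4-2B siCTRL and 0.261, 0.628, 0.420 and 0.439 CPM in siMOCOS (log2 change -1.89, SE 0.32, adjusted p = 0.000362). LAMP3, a lysosomal protein, fell after knockdown in all 4 comparisons and rose with TG in all 4, in C4-2B from 1.90, 1.83, 0.587 and 1.51 CPM to 50.1, 38.9, 33.4 and 41.5 CPM in siCTRL cells (log2 change 4.80, SE 0.33, adjusted p = 1.69e-08). In LNCaP without TG, LAMP3 was at 0.507, 0.541, 0.596 and 1.20 CPM in siCTRL and at most 0.298 CPM in siMOCOS. There it had enough reads to test only through the TG libraries, so its rises in LNCaP were set in part by the filter. Of the interferon gamma responders, 4 of 7 tested rose with TG in C4-2B (57.1%, against 21.2% of all genes) and 6 of 8 in LNCaP (75%, against 24.6%). GBP1, a GTPase of that group, went from 2.87, 2.46, 3.15 and 2.59 CPM to 31.8, 29.5, 30 and 24.8 CPM in LNCaP (log2 change 3.39, SE 0.62, adjusted p = 0.000188). In LNCaP siCTRL, CXCL10, CXCL11 and GBP5 were at most 0.394, 0.3377 and 0.2405 CPM, and GBP5 was at most 0.1116 CPM in C4-2B siCTRL. They had enough reads to test only through the TG libraries, so the shares of responders that rose were set in part by the filter. Of the NF-kB targets, 5 of 6 rose with TG in C4-2B (83.3%) and 8 of 8 in LNCaP (100%), against the same shares of all genes, TNFAIP3 by log2 2.39 and 3.21. In LNCaP siCTRL, CXCL8 and CCL2 were at most 0.0601 and 0.2405 CPM. RELB was at most 0.4464 CPM in C4-2B siCTRL and 0.5629 CPM in LNCaP siCTRL. They had enough reads to test only through the TG libraries, so the shares that rose were set in part by the filter. After knockdown with TG, 4 of 6 NF-kB targets were called lower in C4-2B (66.7%, against 7.6% of all genes) and 1 of 8 in LNCaP (12.5%, against 10.2%). The next 3 lists are set against the shares of all genes that changed with TG, 21.2% higher and 19.3% lower in C4-2B and 24.6% and 25.1% in LNCaP. Of 16 antigen presentation genes, 2 rose (12.5%) and 1 fell (6.25%) in C4-2B, and 2 rose (12.5%) and 4 fell (25%) in LNCaP. Of the nucleic acid sensing genes upstream of interferon, 3 of 12 rose (25%) and 3 fell (25%) in C4-2B, and 3 of 11 rose (27.3%) and 1 fell (9.09%) in LNCaP. Of 9 negative regulators of the pathway, 3 rose (33.3%) and 2 fell (22.2%) in C4-2B, and 3 rose and 3 fell (33.3% each) in LNCaP.

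The remaining members were too low to test in either line. IFI27, MX2, XAF1 and OAS2 had group means of at most 0.354 CPM. The highest library among them held 0.692 CPM, in LNCaP siMOCOS TG column 3, for both XAF1 and OAS2. RSAD2 was not tested in C4-2B, and BST2 and DHX58 were not tested in LNCaP.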

How the data were processed

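The table deposited by the authors holds estimated counts per gene for 32 libraries, scaled for transcript length, per its file name. The libraries were strand-specific poly(A) libraries, per the labels' protocols. The submitters' processing notes name STAR 2.6.1d, Salmon 1.5.2, cutadapt 3.4, Trim Galore 0.6.7, FastQC 0.11.9 and the hg38 build, and no source used here gives the annotation or the strand setting of the counting. Counts were rounded and tested with edgeR 4.0.16 (R 4.3.3): filtering by group, TMM scaling, quasi-likelihood F-tests, and Benjamini-Hochberg adjustment over all genes, with calls at an adjusted p under 0.05. Each line was fitted alone (14127 genes in C4-2B, 13806 in LNCaP, 12 residual degrees of freedom each), and line differences in 1 fit (14628 genes, 24 residual degrees of freedom). Counts of line differences cover genes tested in each line alone, a limit set after the values were seen. The fitting was tested on simulated data. DESeq2 1.42.0, limma 3.58.1 (voom), other scaling, no filter, omitted libraries, column pairs and a replicate block were tried as alternatives. Gene positions come from GENCODE v29 (GRCh38) and promoters from RefSeq. Values in every library are given for up to 5 called members with the greatest rise and 5 with the greatest fall within a line (3 for line differences and interactions), with other genes limited to receptor, ligand and JAK-STAT genes and the 4 with the smallest adjusted p of each list. Values of PARP14, IFIT2, DDX58 and IRF1 in the column pairs, and of HERC5 and EIF2AK2, were chosen after they were seen. The members and lists were chosen with earlier results of these data known. Some of the genes counted in the lists are not reported here by name.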

Additional observations from a re-analysis of the deposited data

Results flagged for a closer look

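In groups of 4, the highest or lowest library of a member stood apart from the other 3 in 12 of 252 member and group combinations, by Dixon's test, where chance gives about 1 in 20 groups. IFI44 was 12.6 CPM in LNCaP siCTRL replicate 4, with the next library at 15.3 CPM, and 8.14 CPM in LNCaP siMOCOS TG column 3, with the next at 6.95 CPM. In LNCaP siCTRL TG replicate 2, ISG20 was 22.8 CPM (next 13.7 CPM), OASL was 12.5 CPM (next 9.01 CPM) and ISG15 was 2.19 CPM (next 0.875 CPM). OASL was 4.22 CPM in C4-2B siCTRL TG replicate 4, below 5.50 CPM in the next. EIF2AK2 was 66.7 CPM in C4-2B siCTRL TG replicate 3, above 50.0 CPM in the next, and 55.6 CPM in LNCaP siMOCOS TG column 1, below 64.2 CPM. HERC6 was 17.2 CPM in LNCaP siCTRL TG replicate 4, below 20.7 CPM. IRF9 was 5.53 CPM in LNCaP siCTRL replicate 3, above 4.63 CPM. USP18 was 19.5 CPM in C4-2B siCTRL replicate 4, above 18.8 CPM, and SAMD9L was 0.104 CPM in C4-2B siMOCOS column 1, above 0.0525 CPM.

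The fall of OASL after knockdown with TG differed between the lines, by log2 1.40 (LNCaP minus C4-2B, adjusted p = 0.0154 by edgeR's quasi-likelihood test in the joint fit), and DESeq2 and limma voom called it too.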

How the results depend on the processing

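No alternative turned the direction of a called member. DESeq2 kept all 116 calls of members over the comparisons, limma voom kept 112 of 116 and median-ratio scaling 115. No filter on low counts lost 8 of 116 calls, fitting both lines together lost 12 of 93 (4 of the 11 in LNCaP with knockdown and TG), and the block on replicate number lost 2 of 45. Columns 1 and 2 alone lost 17 of 68 and columns 3 and 4 alone 10 of 68, omitting the 4 outlying siCTRL libraries lost 11 of 89, and leaving out 1 library lost 107 of 934 calls compared. With knockdown columns 1 and 2 alone, 7 members were called with TG in C4-2B knockdown cells against 11 pooled (4 of them shared), 20 against 11 after knockdown with TG in LNCaP, and 1 interaction in each line (DDX58 in C4-2B, IRF1 in LNCaP) against 0. The shares of all genes called with these columns alone are not given here. Without the 4 siCTRL libraries farthest from their group means, an alternative chosen after seeing the data, 0 members differed between lines in the knockdown response with TG, against 1 (OASL). The cause was not tested. Leaving out 1 library gave 9 to 11 calls for TG in C4-2B (12 with all), 7 to 9 for knockdown (9), 11 to 12 for knockdown with TG (11) and 7 to 12 for TG in knockdown cells (11). In LNCaP it gave 10 to 14 (13), 8 to 10 (10), 7 to 17 (11) and 11 to 16 (16), and between the lines 20 to 22 (22, with RSAD2, DHX58 and BST2, which had enough reads in 1 line only, included), with OASL called in every omission. With the replicate number as a block, TG called 10 members in C4-2B and 14 in LNCaP, the lines differed in 23, and their TG responses in 0. The numbers do not pair the siCTRL libraries without and with TG: same-number correlations of deviations were -0.0594, -0.603, -0.622 and 0.305 in C4-2B and -0.176, 0.381, -0.226 and 0.058 in LNCaP. For knockdown comparisons, No paired analysis was possible because the columns carry no replicate number that the labels give. Members under about 0.5 CPM rest on few reads at this depth.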
